A study of Macaca mulatta with 33 samples.

Results

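In the rhesus corpus luteum, 56 genes were lower on luteal day 15, after 6 days of human chorionic gonadotropin (hCG), than on luteal day 10. The day 10 tissue was untreated or had 1 day of hCG. The 56 were chosen from 14132 genes measured by an identifiable probe set, each gene by its probe set of highest mean over 33 arrays. A gene was taken when its mean in day 15 hCG tissue lay at least 0.8 log2 units below that in untreated tissue and also below that in day 10 hCG tissue, with an untreated mean of at least 7. The rule also leaves out a few genes by name and all symbols that begin with SLC or KCN, which removed 7 genes that met these limits (HSD3B2, AREG, F2RL1, KRT8, LRRC15, SLC17A4 and PTGDR). The values of 12 arrays chose the members (day 15 hCG replicates 1, 2, 4 and 5, day 10 hCG replicates 1 to 4 and untreated replicates 1 to 4), so the fall in those arrays is a description and is not tested here. The tests below use 14 other arrays.

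The tissue was whole corpus luteum of adult, cycling female rhesus macaques, with rising doses of hCG given from luteal day 9 to imitate early pregnancy. Day 15 tissue had 6 days of hCG alone (5 arrays), with the drug trilostane (4 arrays), or with trilostane and R5020 (4 arrays). Day 10 tissue had 1 day of the same 3 treatments (4 arrays each), and the baseline was untreated day 10 tissue (8 arrays). Trilostane inhibits 3-beta-hydroxysteroid dehydrogenase and so blocks progesterone synthesis, while R5020 (a synthetic progestin) acts on the progesterone receptor. Every group with R5020 also had hCG and trilostane. No untreated day 15 tissue was analysed here, so a later luteal day and a longer exposure to hCG cannot be told apart. The labels do not say whether each array came from a separate animal, so p-values reflect only how far these samples varied, which may be technical.

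The corpus luteum forms from the ovulated follicle, makes progesterone, and regresses at the end of the cycle unless chorionic gonadotropin from an implanting embryo acts on its luteinizing hormone receptors. It is among the most vascular tissues of the body, and its dividing cells are mostly endothelial and stromal cells, while the luteal cells that make steroid have largely left the cell cycle. Because whole tissue was measured, fewer cells of a type and less RNA per cell cannot be told apart.

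The arrays were placed in 3 sets, which the sample titles alone do not give. The basis of the sets is not reported here, so what they stand for cannot be stated. Titles also cut across them: day 15 hCG replicate 3 (set 3) is titled as a reanalysis, as are replicates 1, 2 and 4 (set 1), and replicate 5 (set 1) is not. Set 1 held all arrays that chose the members and the day 10 trilostane arrays; set 2 held untreated replicates 6 to 9, the 4 day 10 R5020 arrays and replicates 1 to 3 of the day 15 trilostane and R5020 groups; set 3 held 1 further array of each day 15 group. In set 3, replicate 4 of the day 15 trilostane group and replicate 4 of the day 15 R5020 group were near copies of each other (SD of their differences 0.192, against a median of 0.476 over 528 pairs), although they belong to different groups. Day 15 hCG replicates 3 and 5 were as close (SD 0.201). With replicate 3 in place of replicate 5 the rule gave 57 members, 54 of them shared. Marker means were not computed for the day 10 trilostane arrays. The mean of the 6 measured luteal markers lay between 12.12 and 12.92 in every other array of sets 1 and 2. However, 2 of the 6 moved with the members in day 15 trilostane tissue against untreated tissue: HSD3B2, the target of trilostane and among the genes left out by name (-2.35 ± 0.36, adjusted p = 0.0032), and FDXR, which passes electrons to steroid-making enzymes (-0.84 ± 0.17, adjusted p = 0.012). HSD3B2 also fell in day 15 R5020 tissue (-1.77, adjusted p = 0.033). Their part in the members' fall was not tested. Of 8 epithelial markers, KRT7, EPCAM, CDH1 and MSLN averaged below 6.18, the median of all values, in each group of sets 1 and 2 other than day 10 trilostane. The mean of the 8 lay between 6.42 and 7.14 in those arrays. Of 9 measured endothelial markers none passed in any tested comparison. Their median change from untreated tissue was -0.10 in day 15 trilostane and -0.02 in day 15 R5020 tissue. Of 8 measured fibroblast markers, COL6A3 fell and DCN rose in day 15 trilostane tissue, and none passed in the other comparisons. The part of these cells in the members' fall was not tested.

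By role, 13 of the 56 members act in cell division, 8 in transcription or DNA repair, 7 are germ cell or RNA-binding genes, 7 act in metabolism or mitochondria and 7 in signalling or protein turnover. A further 4 build cell junctions or adhesion, 4 are receptors or secreted proteins, 3 belong to the cytoskeleton or cilia, and 3 fit none of these (TMEM245 and 2 genes known only by locus names). These groups were drawn up after the values had been seen.

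In the arrays that chose them, the members' untreated means ran from 7.05 to 13.38 (log2 intensity, median 9.37). The day 15 hCG means lay 0.83 to 2.33 below the untreated means, with a median difference of -1.17. Against day 10 hCG they differed by -4.09 to -0.81 (median -1.11). These differences are what the rule selected. The day 10 hCG mean was within 0.8 of the untreated mean for 43 members, at least 0.8 above it for 9 and at least 0.8 below it for 4. These counts are shaped by the rule, which used the same arrays. By asking for a fall from day 10 hCG it left out genes already near their day 15 level after 1 day. Single arrays of day 15 hCG and untreated tissue overlapped for 11 members.

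At the edge of the rule, PTX3 (day 15 hCG minus untreated -0.84), IRX5 (-0.83) and FOXM1 (day 15 minus day 10 hCG -0.81) were just inside. The genes just outside were CRABP2, KIF2C and KIF23, whose day 15 minus day 10 hCG differences were -0.79, -0.78 and -0.78.

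**Figure D1:**
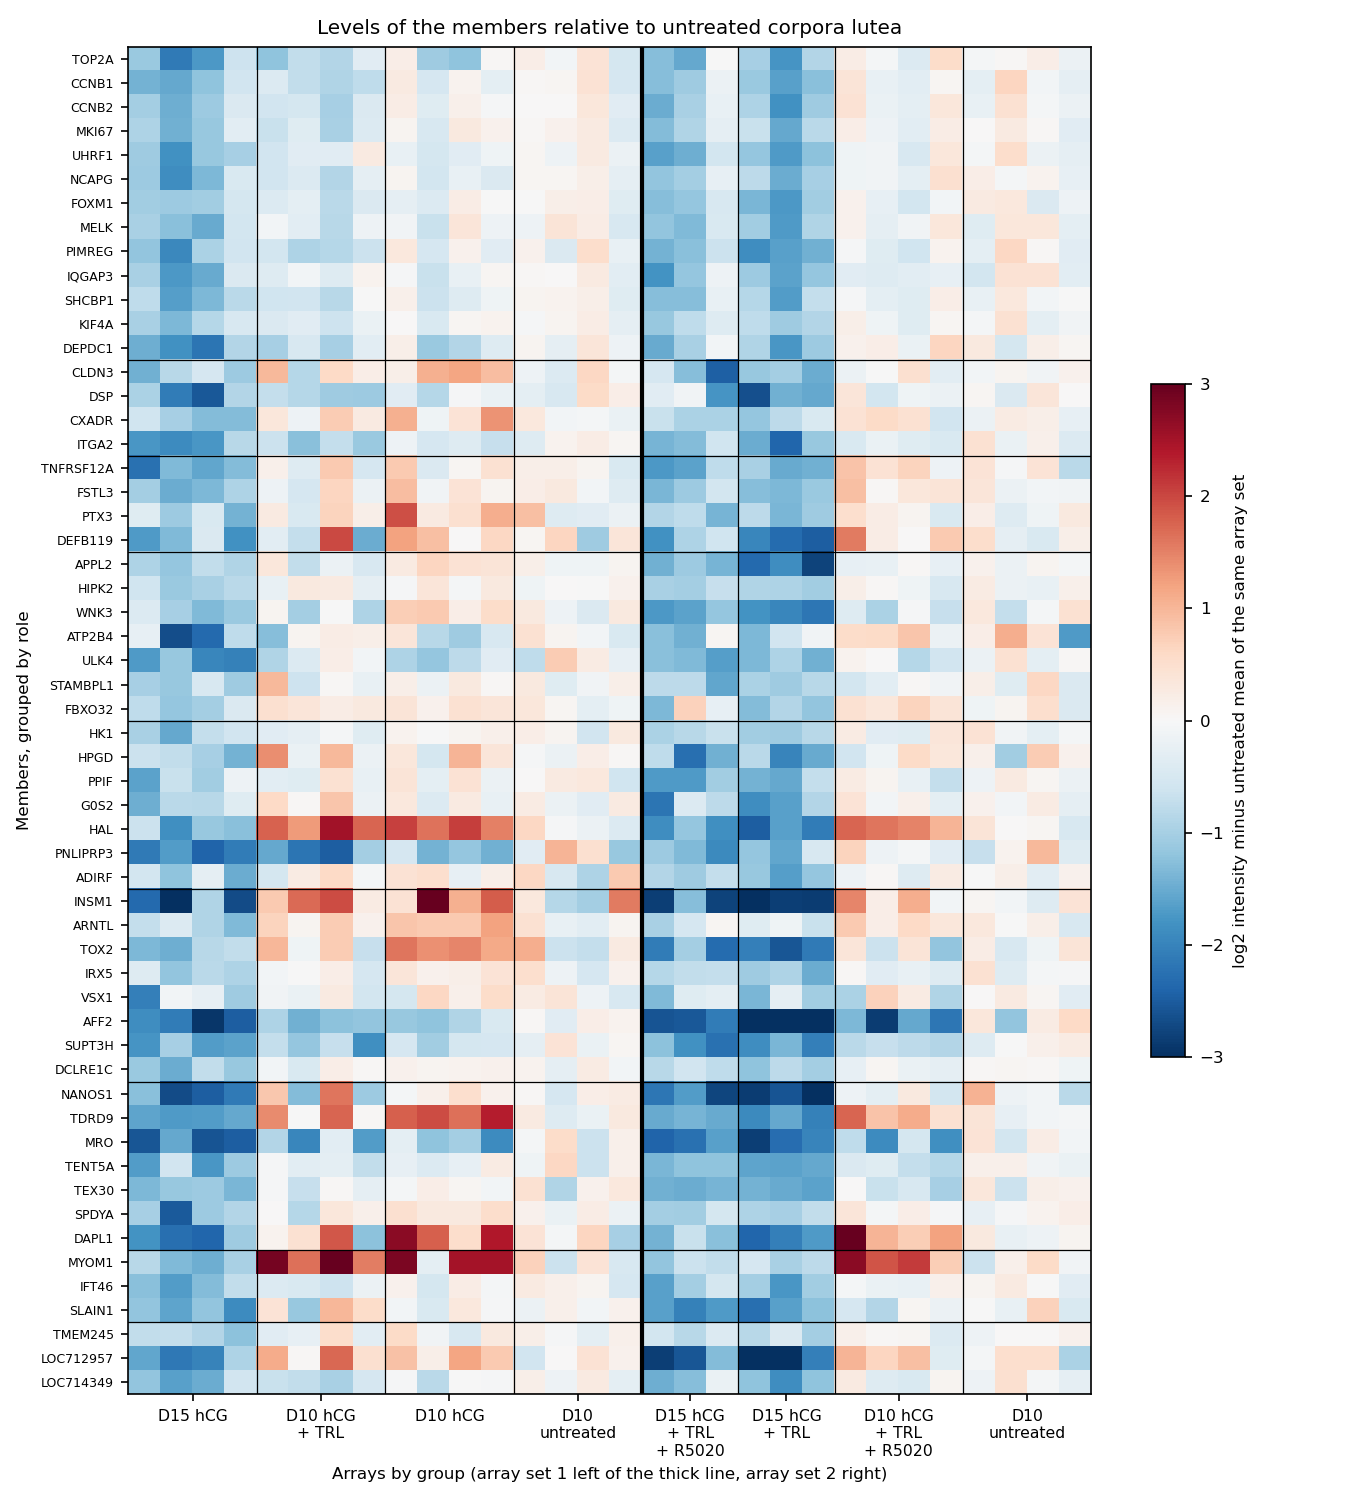
Level of each of the 56 members (rows, grouped by role and divided by thin lines) on each array of sets 1 and 2 (columns, by group), as log2 intensity minus the mean of the untreated arrays of the same set; the colour scale is cut at -3 and 3. All 3 day 15 groups are blue for most members, and the day 10 groups are mixed, with HAL, TDRD9, DAPL1 and MYOM1 red in most hCG-treated arrays.

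Trilostane was given with hCG to ask which changes need the tissue's own steroid. In day 15 trilostane tissue all 56 members lay below untreated tissue of the same array set, and 47 of them fell (limma across 27836 probe sets, Benjamini-Hochberg adjusted p under 0.05, 3 arrays against 4). No member rose. The shares of all probe sets that fell and rose were 2.82% and 2.95%, and among other genes with an untreated mean of at least 7 the share that fell was 3.65%. At an unadjusted p under 0.05 limma called 53 members, where 20.1% of all probe sets passed in either direction. The members' median change was -1.29 on the log2 scale (range -3.41 to -0.39), against -0.02 for those other genes. The groups did not overlap for 50 members, against 13.0% of those genes.

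The members that did not pass in day 15 trilostane tissue were ARNTL, ATP2B4, CLDN3, CXADR, FBXO32, HPGD, MYOM1, PNLIPRP3 and VSX1. Leaving out each of the 14 arrays in turn kept 27 of the 47 calls in every fit. Without day 15 trilostane replicate 2 the count of members that fell was 29. Macrophage markers moved with this group: 6 of 7 measured (AIF1, CD68, CSF1R, LYZ, MRC1 and TYROBP) rose, and the mean of the 7 lay at 10.21 to 10.80 in day 15 trilostane tissue and at 8.72 to 9.74 in untreated tissue. Their part in the members' fall was not tested. In day 15 hCG tissue, whose arrays chose the members, that mean lay at 9.33 to 9.86, inside the 8.93 to 10.23 of the untreated arrays of set 1. In day 15 R5020 tissue it lay at 9.78 to 9.90, and none of the 7 markers passed against untreated tissue.

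R5020 was added to replace the missing progestin action. In day 15 R5020 tissue all 56 members again lay below untreated tissue, with a median change of -1.03, and 22 fell. The share of all probe sets that fell was 0.625%, and of other genes with an untreated mean of at least 7 it was 0.575%. Day 15 and day 10 tissue could also be compared under the same 3 agents. Of the 56 members, 19 were lower after 6 days than after 1 day of hCG with trilostane and R5020, with a median change of -0.97, and the share of all probe sets that fell was 0.758%. Groups did not overlap for 40 members against untreated tissue and for 38 against day 10 R5020 tissue, where 6.45% and 7.77% of the other genes did not. These comparisons share the day 15 R5020 arrays, and the comparisons with untreated tissue share its 4 arrays.

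Both R5020 counts depended on single arrays. Against untreated tissue the count was 5 without day 15 R5020 replicate 1, 8 without its replicate 2 and 14 without untreated replicate 6. Against day 10 R5020 tissue it was 8 without day 15 R5020 replicate 1 or 2, and 9, 11 and 12 without day 10 R5020 replicates 1, 2 and 3. With the near-identical replicate 4 arrays of set 3 added, the counts were 41 and 38. That fit had no term for array set, and set 3 holds only day 15 arrays. A difference between sets therefore cannot be told apart from the day 15 changes in it. With all 33 arrays the counts were 44 and 32, but that fit holds the arrays that chose the members. Of the 22 calls against untreated tissue, those of APPL2, SUPT3H and TENT5A held in every fit that left out an array, and the other 19 were lost without at least 1 array, most often day 15 R5020 replicate 1 or 2.

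Day 15 R5020 tissue and day 15 trilostane tissue were then set against each other. No member and none of the 27836 probe sets passed at an adjusted p under 0.05 (limma, 3 arrays against 3), and 1400 probe sets (5.03%) and 8 members had an unadjusted p under 0.05. Without day 15 trilostane replicate 2, 55 probe sets were lower and 13 higher with R5020, among them 1 member, APPL2 (higher by 1.25, adjusted p = 0.0095). Of the members, 44 lay above 0, with a median difference of 0.27 (range -0.36 to 1.14), against 0.03 for other genes with an untreated mean of at least 7. That median was 0.08 without day 15 R5020 replicate 3 and 0.42 without its replicate 1. The groups did not overlap for 11 members, all higher with R5020, where 5.69% of the other genes did not overlap in that direction and 4.26% did not in the opposite one. The differences of single members had standard errors of 0.13 to 0.59, so small differences were not detectable.

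After 1 day the members had no shared direction. In day 10 R5020 tissue 34 of 56 lay below untreated tissue, with a median change of -0.06. AFF2 and TENT5A fell, and HAL and MYOM1 rose. The shares of all probe sets that fell and rose were 0.248% and 0.262%. Groups did not overlap for 3 members that were lower and 4 that were higher, where 4.39% and 2.78% of the other genes did not. None of these 4 calls held in every fit that left out an array; the count of members that fell was 0 without 11 of the 14 arrays, among them every untreated array but replicate 7 and all 4 day 10 R5020 arrays.

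Day 10 trilostane tissue shares its array set and its references with the arrays that chose the members, so it is described without a test. The rule favoured genes with a high day 10 hCG mean, so a lower mean in another day 10 group is expected in part from that choice. Its means lay below day 10 hCG for 45 of 56 members, with a median difference of -0.30 (range -1.56 to 0.50) against -0.01 over all genes. They lay below untreated tissue for 36 members (median -0.17), and above day 15 hCG for all 56. Of the 9 members at least 0.8 above untreated tissue after 1 day of hCG alone, HAL and MYOM1 did not have a lower mean with trilostane. HAL averaged 9.28 with trilostane and 9.27 with hCG alone, and MYOM1 averaged 11.41 with trilostane and 10.97 with hCG alone. For MYOM1 that order rests on day 10 hCG replicate 2 (8.80, against 11.58 to 11.92 in the other hCG arrays). Its trilostane arrays ran from 10.64 to 12.29. The other members of the 9 (INSM1, DAPL1, TDRD9, TOX2, CLDN3, ARNTL and PTX3) were lower with trilostane, by -1.56 for DAPL1, -1.16 for TOX2, -1.15 for TDRD9 and -0.78 for PTX3, and all 9 stayed above the untreated mean. These 9 were picked for a high mean in the same day 10 hCG arrays, which by itself favours a lower value with trilostane.

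**Figure D2:**
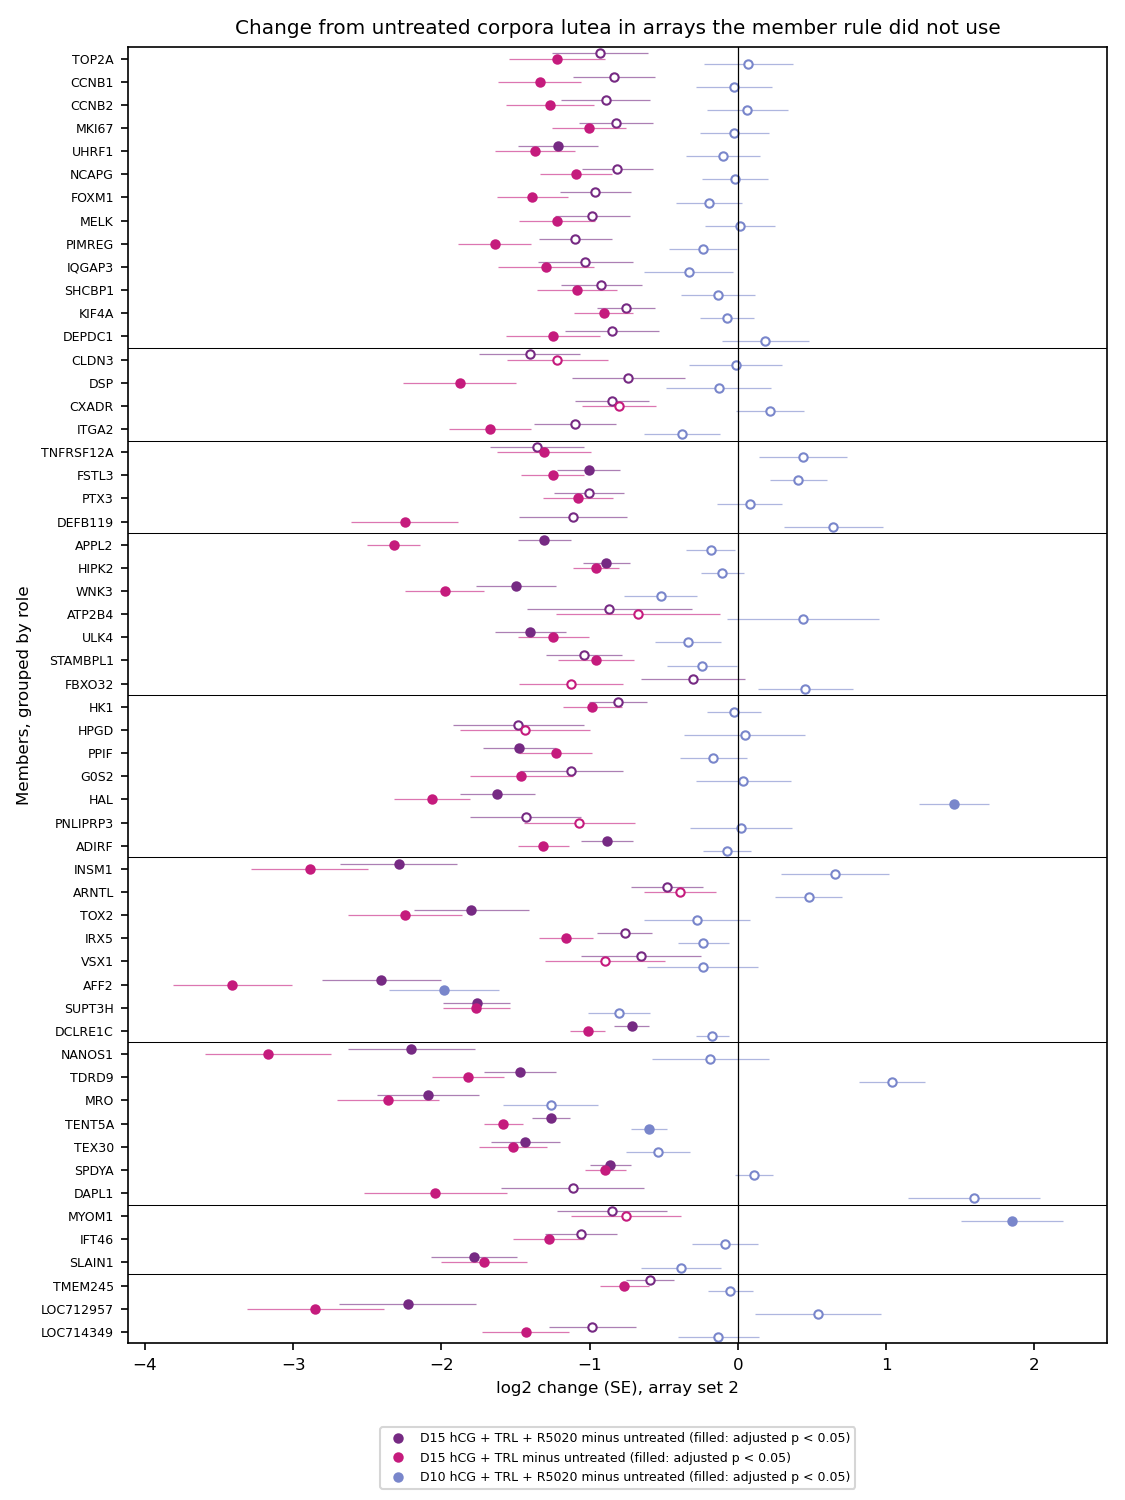
Log2 change from untreated tissue (points, with SE bars) of each of the 56 members in 3 treatments of array set 2; filled points have an adjusted p under 0.05. Day 15 points with trilostane (47 filled) and with R5020 (22 filled) all lie left of 0, and day 10 R5020 points lie on both sides of it.

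The cell division genes were the largest role group. All 13 fell in day 15 trilostane tissue, with a median change of -1.25 (range -1.64 to -0.91). In day 15 R5020 tissue their median change was -0.92 and only UHRF1, which maintains DNA methylation at replication, fell (-1.22 ± 0.27, adjusted p = 0.049), a call that leaving out any of 12 single arrays ended. Against day 10 R5020 tissue the median was -0.81 and none fell, where all 13 were below 0. Both counts depended on the arrays in the fit. With the set 3 arrays added, in the fit without a term for array set, 8 of 13 fell in each comparison. With all 33 arrays, which include those that chose the members, 13 fell against untreated tissue and 6 against day 10 R5020 tissue. After 1 day with R5020 they stood at untreated levels, with a median of -0.02 and none called.

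CCNB1, the cyclin that drives entry into mitosis, stood at 7.72, 7.19 and 7.57 in the 3 day 15 trilostane arrays. In day 15 R5020 tissue it was 7.54, 7.77 and 8.65, in day 10 R5020 tissue 8.52 to 9.22, and in untreated tissue 8.54, 9.47, 8.74 and 8.56. The third R5020 array reached the untreated range and the other two did not. CCNB1 fell by 1.34 ± 0.28 in day 15 trilostane tissue (2.53-fold lower, adjusted p = 0.014), and the change in R5020 tissue was -0.83 ± 0.28 (adjusted p = 0.19). TOP2A, the topoisomerase that untangles chromosomes, was 8.34, 7.56 and 8.45 in day 15 trilostane tissue, 8.07, 7.81 and 9.32 in R5020 tissue, and 9.15 to 9.54 in untreated tissue. Again the third R5020 array was the high one. TOP2A fell 2.33-fold in trilostane tissue (adjusted p = 0.043), a call that held in 5 of the 14 fits without an array.

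MKI67, the source of the proliferation marker Ki-67, fell by 1.01 ± 0.25 in day 15 trilostane tissue (adjusted p = 0.032), and CCNB2, a second mitotic cyclin, by 1.27 ± 0.30 (adjusted p = 0.025). FOXM1, a transcription factor of mitotic genes, fell by 1.39 ± 0.24 (adjusted p = 0.0054). Day 15 trilostane replicate 2 was the lowest array of this group. Without it 2 of the 13 passed (FOXM1 and PIMREG), and CCNB1 (adjusted p = 0.067), CCNB2 (0.12), MKI67 (0.15) and TOP2A (0.19) did not. The count was 6 without trilostane replicate 3, and 8 without untreated replicate 6 or 8.

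The other members of the group fell by like amounts: NCAPG, a condensin subunit, KIF4A, a chromosome-bound kinesin, MELK, a mitotic kinase, and IQGAP3, SHCBP1, DEPDC1 and PIMREG, all genes of dividing cells. The mean of the 13 was 6.64, 6.06 and 6.65 in day 15 trilostane tissue, and 6.32, 6.54 and 7.39 in day 15 R5020 tissue. It was 7.33 to 7.91 in day 10 R5020 tissue and 7.48 to 7.98 in untreated tissue of set 2. One R5020 array therefore sat beside the day 10 arrays and the other two beside trilostane. Without R5020 replicate 3, 8 of the 13 fell against untreated tissue and 6 against day 10 R5020 tissue. In the near-identical set 3 arrays the mean was 6.13 with R5020 and 6.27 with trilostane. Day 15 hCG replicates 3 and 5, the other near copies, both stood at 7.30, and the remaining day 15 hCG arrays at 6.27 to 6.81. All 13 lay higher in day 15 R5020 than in day 15 trilostane tissue (median 0.28, none called), and without R5020 replicate 3 that median was -0.02.

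Beyond the members, the list of cell cycle genes had 18 further genes measured. Of these 5 fell in day 15 trilostane tissue, namely AURKA and TPX2, a spindle kinase and its activator, CDK1, the kinase partner of the B cyclins, and MCM3 and TYMS, which act in DNA synthesis. None of the 18 fell in day 15 R5020 tissue against untreated tissue. With the 4 members included, the list's median change was -0.51 in day 15 trilostane tissue and -0.45 in day 15 R5020 tissue.

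**Figure D3:**
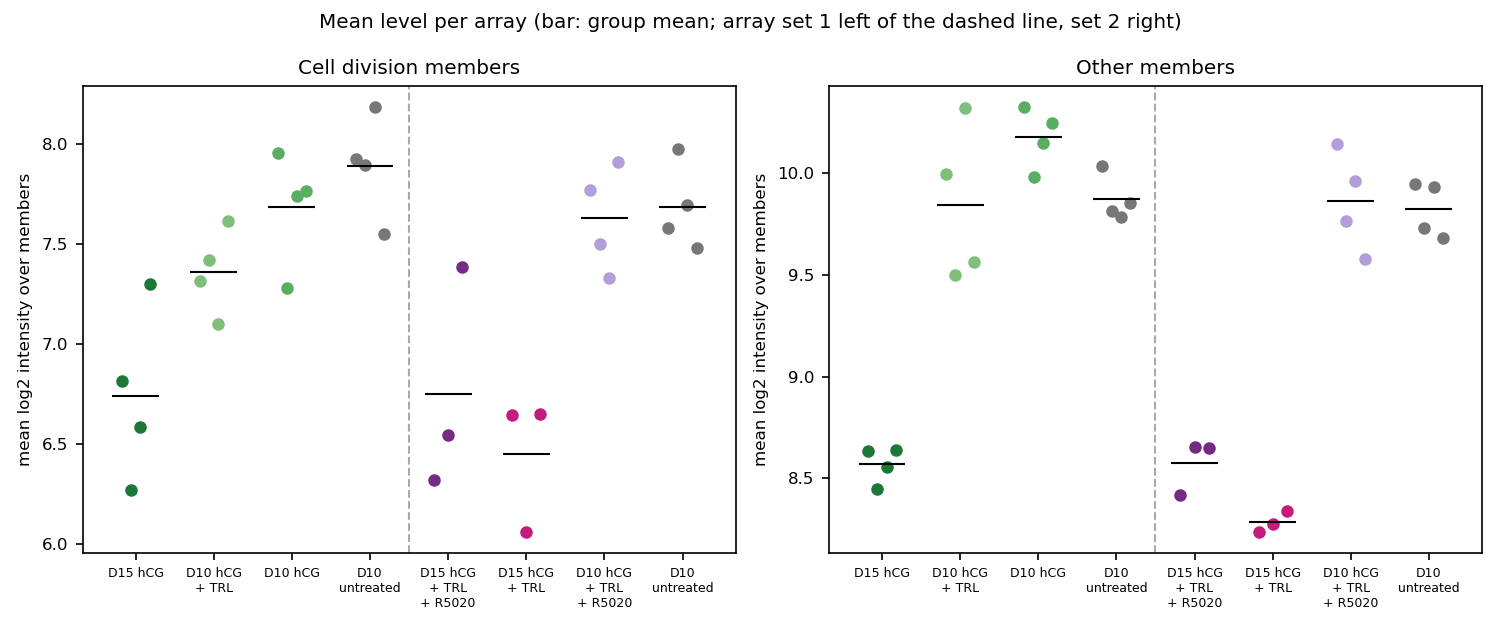
Mean log2 intensity of the 13 cell division members (left) and the 43 other members (right) on each array of sets 1 and 2, by group (bars are group means). For cell division, day 15 hCG replicate 5 (7.30) and day 15 R5020 replicate 3 (7.39) stand apart from the other day 15 arrays (6.06 to 6.81), and for the other members no day 15 array exceeds 8.65.

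The cell division members varied together from array to array more closely than the rest. After group means were removed, the median pairwise correlation among the 13 was 0.76 over the 14 arrays of set 2 and 0.73 over the 16 arrays of set 1, given as a description. Among the other 43 members it was 0.11 and 0.20, and between both kinds -0.05 and -0.02. IFT46, a part of the intraflagellar transport machinery of cilia, followed the cell division mean with r = 0.92 and 0.90, and LOC714349, singled out after its values were seen, followed it most closely of the 43 (r = 0.97 and 0.94). The points share arrays, and the chosen probe set of IFT46 was not matched by its other one, whose day 15 hCG mean lay -0.01 from untreated tissue.

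Germ cell and RNA-binding genes were lower than in untreated tissue in both day 15 groups. All 7 fell in day 15 trilostane tissue (median -1.82), 6 in R5020 tissue (median -1.43), and 5 in day 15 against day 10 R5020 tissue (median -0.97). Between the day 15 groups all 7 were higher with R5020 than with trilostane (median 0.32), and none passed. NANOS1, an RNA-binding repressor of translation, stood at 7.82, 8.08 and 6.62 in day 15 trilostane tissue and at 8.50, 8.99 and 7.91 in day 15 R5020 tissue. Day 10 R5020 tissue had 10.11 to 10.96 and untreated tissue 11.73, 10.51, 10.58 and 9.87. All 6 day 15 arrays lay below all day 10 arrays. NANOS1 fell 9.00-fold with trilostane (-3.17 ± 0.43, adjusted p = 0.0014) and 4.60-fold with R5020 (-2.20 ± 0.43, adjusted p = 0.026), the second of which was lost without day 15 R5020 replicate 1 (adjusted p = 0.092), 2 or 3 or untreated replicate 6 or 8.

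TDRD9, a helicase of the piRNA pathway that silences transposons in the mouse male germ line, was 5.17, 5.54 and 5.06 in day 15 trilostane tissue, and 5.55, 5.68 and 5.57 in R5020 tissue. It was 8.83, 7.92, 8.20 and 7.54 in day 10 R5020 tissue and 7.45, 6.83, 6.99 and 7.02 in untreated tissue. Both day 15 groups were under the median of all values, and the day 10 R5020 arrays were all above the untreated ones. TDRD9 fell at least 1.85-fold from untreated tissue with either treatment (adjusted p = 0.0014 with trilostane and 0.013 with R5020, the second 0.058 without day 15 R5020 replicate 1). It was at least 3.83-fold lower in day 15 than in day 10 R5020 tissue (adjusted p = 0.0006), and its day 10 change of 1.04 ± 0.22 had an adjusted p of 0.059.

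TENT5A, a poly(A) polymerase, was tightly grouped at 9.49, 9.45 and 9.52 in day 15 trilostane tissue and at 9.70, 9.85 and 9.85 in R5020 tissue. In day 10 R5020 tissue it was 10.21 to 10.70, and in untreated tissue 10.88 to 11.22. Its 4 groups stood apart in that order, with no overlap. TENT5A fell 2.99-fold with trilostane (adjusted p = 5.4e-05) and 2.40-fold with R5020 (adjusted p = 0.0012), and both calls held without any single array. Its fall after 1 day with R5020 (-0.60 ± 0.12, adjusted p = 0.049) was lost without any of the 14 arrays.

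SPDYA, an activator of cyclin-dependent kinases needed for meiosis in the mouse, fell by 0.89 ± 0.14 with trilostane (adjusted p = 0.0033) and by 0.86 ± 0.14 with R5020 (adjusted p = 0.012, and up to 0.061 without day 15 R5020 replicate 1 or 2). The chosen probe set of SPDYA averaged 13.38 in untreated tissue of set 1, and its other probe set averaged 5.05 there and was 0.08 higher in day 15 hCG tissue. TEX30 fell by 1.52 ± 0.23 with trilostane (adjusted p = 0.0031). DAPL1, a homologue of death-associated protein, stood at 4.60, 4.95 and 5.30 in day 15 trilostane tissue and at 6.77 to 7.29 in untreated tissue. DAPL1 fell by 2.04 ± 0.48 (at least 1.75-fold, adjusted p = 0.025), and this was lost without any 1 of the 3 trilostane arrays (adjusted p up to 0.097) or untreated replicate 6 or 9. MRO, expressed in the developing gonads of the mouse, also fell with both treatments, but 2 other probe sets of MRO lay 0.26 and 0.23 above untreated tissue in day 15 hCG tissue.

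Among transcription and DNA repair genes, 6 of 8 fell in day 15 trilostane tissue and 5 in day 15 R5020 tissue. INSM1, a zinc-finger transcriptional repressor that acts in neuroendocrine development, was 4.25, 4.41 and 4.38 in day 15 trilostane tissue, and 4.41, 5.96 and 4.45 in R5020 tissue. In day 10 R5020 tissue it was 7.14 to 8.70, and in untreated tissue 7.29, 7.16, 6.85 and 7.63. Every day 15 array of set 2 was below the median of all values and every day 10 array of that set was above it, while day 15 hCG replicate 4 of set 1 stood at 6.48 and overlapped the untreated arrays. INSM1 fell at least 2.07-fold with trilostane (-2.89 ± 0.39, adjusted p = 0.0015) and with R5020 (-2.29 ± 0.39, adjusted p = 0.016, and up to 0.078 without day 15 R5020 replicate 1 or 3). Against day 10 R5020 tissue it was at least 3.28-fold lower (adjusted p = 0.0047), in every fit that left out an array.

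AFF2, a nuclear protein of the gene silenced in FRAXE fragile X syndrome, had 5.63, 5.36 and 5.09 in day 15 trilostane tissue, 6.17, 6.22 and 6.68 in day 15 R5020 tissue, 5.92 to 7.41 in day 10 R5020 tissue and 7.57 to 9.37 in untreated tissue. It was already low after 1 day with R5020 (-1.98 ± 0.37, adjusted p = 0.041, lost without any of 11 single arrays). AFF2 fell at least 5.99-fold with trilostane (adjusted p = 0.00092) and 5.31-fold with R5020 (adjusted p = 0.014, and up to 0.066 without day 15 R5020 replicate 1 or 2). SUPT3H, a subunit of the SAGA coactivator complex, fell by 1.76 ± 0.22 with each treatment (adjusted p = 0.0012 with trilostane and 0.0054 with R5020), and both calls held without any single array.

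DCLRE1C, the nuclease Artemis of DNA end joining, fell by 1.01 ± 0.12 with trilostane (adjusted p = 0.00092) and by 0.72 ± 0.12 with R5020 (adjusted p = 0.013, and 0.066 without day 15 R5020 replicate 1). The homeobox gene IRX5 fell by 1.16 ± 0.18 with trilostane (adjusted p = 0.0037), and the HMG-box gene TOX2 passed with both, the R5020 call being kept in 5 of the 14 fits without an array. ARNTL, the clock factor BMAL1, did not pass: it was 8.37 to 8.92 with trilostane, 8.06 to 9.10 with R5020 and 8.57 to 9.35 untreated, and the groups overlapped. ARNTL had averaged 10.34 in day 10 hCG and 9.43 in untreated tissue of set 1. On the list of luteal and ovarian transcription factors, which holds ARNTL, 6 of 27 fell in day 15 trilostane tissue and CEBPA rose (1.68 ± 0.40, adjusted p = 0.025). Among those that fell were GATA6 and NR5A2, regulators of steroid synthesis genes, which also fell with R5020 at day 15.

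**Figure D4:**
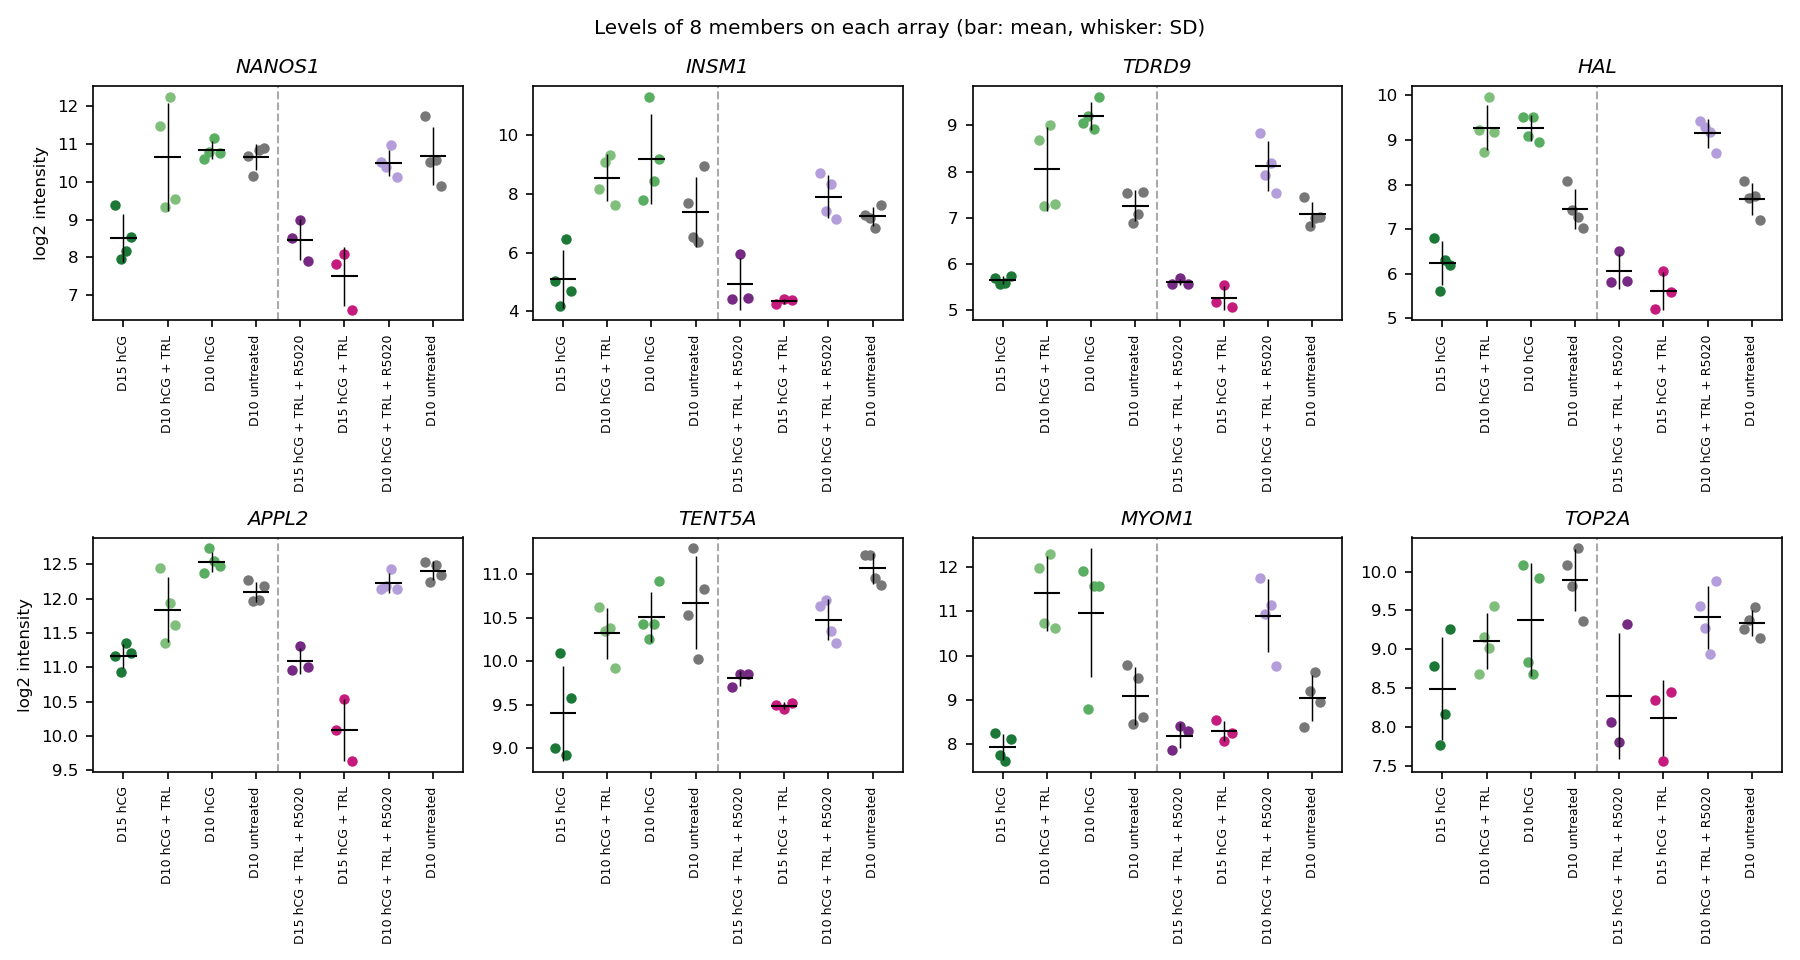
Log2 intensity of 8 members on each array of sets 1 and 2, by group (bar, mean; whisker, SD; 3 or 4 arrays a group); arrays left of the dashed line are set 1. NANOS1, INSM1, TDRD9, HAL, APPL2 and TENT5A are lower in every day 15 array of set 2 than in any day 10 array of that set, MYOM1 is high after 1 day of hCG in most arrays, and TOP2A overlaps through the third R5020 array.

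Metabolic members fell in 5 of 7 cases with trilostane and 3 of 7 with R5020. HAL, the enzyme that starts histidine breakdown, showed a rise after 1 day and a fall after 6. It was 5.22, 6.06 and 5.58 in day 15 trilostane tissue and 5.82, 6.51 and 5.83 in day 15 R5020 tissue. It was 9.43, 9.30, 9.17 and 8.70 in day 10 R5020 tissue, against 8.07, 7.69, 7.75 and 7.21 untreated. The day 10 R5020, untreated and day 15 arrays formed separate ranges. HAL rose 2.75-fold after 1 day with R5020 (1.46 ± 0.24, adjusted p = 0.021, and up to 0.067 without untreated replicate 9 or day 10 R5020 replicate 1, 2 or 3). It fell at least 2.82-fold from untreated tissue with trilostane (adjusted p = 0.0012) and with R5020 (adjusted p = 0.012, and 0.057 without day 15 R5020 replicate 1). In day 15 against day 10 R5020 tissue it was at least 7.80-fold lower (-3.08 ± 0.26, adjusted p = 0.00013). The other probe set of HAL averaged 6.20 in untreated tissue of set 1, near the median of all values. It averaged 7.65 in day 10 hCG tissue, and its day 15 hCG mean lay -0.15 from untreated tissue.

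ADIRF, a factor of fat cell differentiation, fell by 1.31 ± 0.17 with trilostane (adjusted p = 0.0014) and by 0.88 ± 0.17 with R5020 (adjusted p = 0.029, lost without untreated replicate 6 or 9 or day 15 R5020 replicate 1 or 2). PPIF, the mitochondrial cyclophilin of the permeability transition pore, fell with both treatments, calls lost without replicate 1 or 2 of the day 15 group. HK1, the hexokinase of the first step of glycolysis, fell by 0.98 ± 0.20 with trilostane (adjusted p = 0.013), but as a mean over all its probe sets it did not (adjusted p = 0.19), and its 3 other probe sets lay within 0.17 of untreated tissue in day 15 hCG tissue. G0S2, an inhibitor of the lipase that breaks down stored triglyceride, fell with trilostane (adjusted p = 0.026, lost without trilostane replicate 1 or 2 or untreated replicate 6 or 8) and did not pass with R5020 (adjusted p = 0.16). HPGD, which inactivates prostaglandins, had 10.29, 9.10 and 9.58 with trilostane, 10.32, 8.84 and 9.66 with R5020, and 11.25, 10.05, 11.85 and 11.21 untreated. Untreated replicate 7 overlapped both treated groups, and HPGD did not pass (changes of -1.44 and -1.48, adjusted p = 0.075 and 0.14). PNLIPRP3, of the pancreatic lipase family, did not pass either.

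All 4 receptors and secreted proteins fell with trilostane, and all 4 were lower in day 15 than in day 10 R5020 tissue. Of the calls between the days, FSTL3 held in every fit that left out an array, TNFRSF12A in 10 of 14, DEFB119 in 8 and PTX3 in 2, and without day 15 R5020 replicate 1 FSTL3 alone passed. FSTL3, a secreted protein that binds activin, was 7.93, 7.87 and 8.10 in day 15 trilostane tissue and 7.83, 8.12 and 8.66 in R5020 tissue, against 9.57, 9.03, 9.14 and 9.12 in untreated tissue. Every day 15 array was below every untreated one. FSTL3 fell 2.38-fold with trilostane (adjusted p = 0.0046) and 2.01-fold with R5020 (adjusted p = 0.036, up to 0.17 and lost without any of 8 single arrays, day 15 R5020 replicates 1 and 2 and untreated replicates 6, 8 and 9 among them). On the list of activin, BMP and TGF-beta genes 3 of 24 fell with trilostane, the others BMP2 and BMP4, and 2 rose.

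TNFRSF12A, the receptor of the cytokine TWEAK, fell 2.48-fold with trilostane (adjusted p = 0.030, up to 0.11 without trilostane replicate 2 or 3 or untreated replicate 6 or 8). It was 3.47-fold lower in day 15 than in day 10 R5020 tissue (adjusted p = 0.022, up to 0.11 without day 15 replicate 1 or 2 or day 10 replicate 1 or 3). DEFB119, a beta-defensin, was 5.85, 5.50 and 5.35 in day 15 trilostane tissue, 6.00, 6.88 and 7.22 in R5020 tissue, and 8.34, 7.55, 7.37 and 8.00 untreated. It fell at least 3.10-fold with trilostane (adjusted p = 0.0039), and its change with R5020 was -1.11 ± 0.36 (adjusted p = 0.18). The R5020 arrays all lay above the trilostane arrays, with a difference of 1.14 ± 0.39 (adjusted p = 0.65). PTX3, a pentraxin of the matrix around the mouse oocyte, fell by 1.08 ± 0.24 with trilostane (adjusted p = 0.018, and up to 0.086 without trilostane replicate 2 or 3 or untreated replicate 6 or 9).

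Signalling members fell in 5 of 7 cases with trilostane and 4 of 7 with R5020. APPL2, an adaptor on endosomes, had the smallest adjusted p of all members. It was 10.08, 10.54 and 9.64 in day 15 trilostane tissue and 10.96, 11.31 and 11.01 in day 15 R5020 tissue, against 12.54, 12.24, 12.49 and 12.35 in untreated tissue. Trilostane, R5020 and untreated arrays formed 3 separate ranges. APPL2 fell 5.0-fold with trilostane (-2.32 ± 0.18, adjusted p = 3.2e-05) and 2.47-fold with R5020 (-1.31 ± 0.18, adjusted p = 0.0060), in every fit that left out an array. R5020 and trilostane tissue of day 15 differed by 1.01 ± 0.19 (adjusted p = 0.17, and 0.0095 without day 15 trilostane replicate 2). The kinases WNK3, a regulator of chloride cotransporters, and HIPK2 fell with both treatments, as did the ULK4 pseudokinase, whose chosen probe set lay near 12.42 in untreated tissue of set 1 where its 3 others were at 5.11 to 6.07.

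STAMBPL1, a deubiquitinase, fell with trilostane (adjusted p = 0.045, kept in 5 of the 14 fits without an array). FBXO32, a ubiquitin ligase of muscle atrophy, and ATP2B4, a calcium pump of the plasma membrane, did not pass in any comparison. FBXO32 was 9.56 to 9.97 with trilostane and 9.51, 11.54 and 10.61 with R5020, against 10.42 to 11.36 untreated. The R5020 arrays spanned the range of both other groups.

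Of the junction and adhesion genes, DSP and ITGA2 fell with trilostane. DSP, the desmosome protein desmoplakin, was 5.39, 6.59 and 6.49 in day 15 trilostane tissue and 7.68, 7.92 and 6.25 in day 15 R5020 tissue, against 8.10, 7.61, 8.38 and 8.03 untreated. Only R5020 replicate 3 was as low as the trilostane arrays, while for cell division it was the high one. DSP fell at least 3.59-fold with trilostane (adjusted p = 0.013, and 0.060 without trilostane replicate 1), and its R5020 change was -0.74 ± 0.38 (adjusted p = 0.44). ITGA2, a collagen-binding integrin subunit, fell by 1.67 ± 0.28 (3.19-fold, adjusted p = 0.0043) with trilostane. On the list of matrix, protease and adhesion genes 4 of 34 fell there, ITGA2 among them. CLDN3, a claudin of tight junctions, was 9.62 to 10.08 with trilostane, 8.66 to 10.62 with R5020 and 10.99 to 11.23 untreated, with no overlap in either comparison and adjusted p-values of 0.052 and 0.069. CXADR, the coxsackievirus and adenovirus receptor, did not pass.

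Cytoskeletal members differed among themselves. SLAIN1, which promotes microtubule growth, fell 3.28-fold with trilostane (adjusted p = 0.0050) and 3.43-fold with R5020 (adjusted p = 0.013, and 0.061 without day 15 R5020 replicate 2). MYOM1, a structural protein of the muscle M band, was 8.54, 8.08 and 8.26 in day 15 trilostane tissue and 7.87, 8.41 and 8.30 in day 15 R5020 tissue. It was 11.75, 10.94, 11.14 and 9.78 in day 10 R5020 tissue and 8.39, 9.21, 9.63 and 8.95 in untreated tissue. Every day 10 R5020 array was above every untreated one, and the day 15 arrays overlapped the untreated ones. MYOM1 rose 3.6-fold after 1 day with R5020 (1.85 ± 0.34, adjusted p = 0.040, kept in 4 of the 14 fits without an array) and was 6.48-fold lower in day 15 than in day 10 R5020 tissue (adjusted p = 0.0053). It did not fall below untreated tissue (changes of -0.75 with trilostane and -0.85 with R5020, adjusted p = 0.28 and 0.34).

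Across the day 15 comparisons, 14 members fell with trilostane and with R5020 against untreated tissue and were lower in day 15 than in day 10 R5020 tissue: ADIRF, APPL2, DCLRE1C, FSTL3, HAL, HIPK2, INSM1, NANOS1, PPIF, SLAIN1, SPDYA, TDRD9, TENT5A and 1 gene with a locus name. None of the 14 kept all 3 calls in every fit that left out an array: between the days DCLRE1C was kept in 3 of 14 fits, ADIRF in 4, and NANOS1 and SLAIN1 in 6. None of the 14 is a cell division gene in this fit, but without day 15 R5020 replicate 3, 8 of those 13 fell against untreated tissue and 6 against day 10 R5020 tissue. No member passed with R5020 against untreated tissue without passing with trilostane, and MYOM1 passed only in the comparison between the days. The comparisons share arrays, so these counts are not independent.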

How the data were processed

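Whole corpus luteum RNA of rhesus macaques was measured on 33 Affymetrix arrays of the rhesus genome. The log2 intensity per probe set is used as deposited by the authors; how they corrected, summarized and normalized it is not stated in the labels or headers. Of 52865 probe sets, 24956 have 1 symbol, 361 several, 27449 none and 99 are controls; 24616 symbols were matched by gene ID, and none changed. Genome positions were not used.

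Members were found on the deposited values. The members, role groups and gene lists were chosen with earlier results of these data known. Tests used the 14 arrays of array set 2, each centred on its median, keeping 27836 probe sets that exceeded 6.18, the median over all arrays and probe sets, on 3 or more arrays, all 56 members among them. Group means were fitted with limma 3.58.1 in R 4.3.3 (moderated by eBayes along a trend with mean level; 10 residual degrees of freedom), with 5 comparisons tested on both sides and Benjamini-Hochberg adjustment within each. The fit was tested on simulated data. The number of arrays limits the precision.

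Values in the text are deposited log2 intensities, and changes are from the fit. Folds are "at least" where a group mean lies under 6.18, counted from that value. Members named with values are the 12 of largest fall, the 3 just inside and outside the rule, up to 8 of smallest adjusted p per comparison, and members of the lists; others were added after their values were seen. Of 16 lists, 5 hold members. Alternatives were scaling, filter, trend, arrays in the fit, probe sets and leaving out each array.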

Additional observations from a re-analysis of the deposited data

Results flagged for a closer look

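Groups of 4 arrays of the same treatment and array set were examined for the 29 named members. Among 174 such groups, 10 held 1 array far from the rest (Dixon's criterion), 5.75% of them, where chance flags about 1 group in 20. In day 10 R5020 tissue, DAPL1 was 10.43 in replicate 1, against 7.74 to 8.19 in the other arrays, and APPL2 was 12.44 in replicate 3, against 12.15 to 12.18. In day 15 hCG tissue of set 1, FOXM1 (7.03, against at most 6.5) and ITGA2 (9.24, against 8.20 to 8.34) were high in replicate 5, a near copy of replicate 3. Replicate 3 lies in set 3 and was left out of this search. It stood at 6.60 for FOXM1 and at 9.29 for ITGA2, so for ITGA2 replicate 5 was not alone. SPDYA was low in day 15 hCG replicate 2 (10.87, against 12.28 to 12.50 in the other set 1 arrays of that group). In day 10 hCG tissue, SUPT3H (9.99, against 10.49 to 10.53) and MYOM1 (8.80, against 11.58 to 11.92) were low in replicate 2, and ARNTL was high in replicate 4 (10.65, against 10.21 to 10.26). In untreated tissue of set 1, PTX3 was high in replicate 1 (8.51, against 7.21 to 7.42) and TNFRSF12A low in replicate 4 (10.40, against 10.94 to 11.04).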

How the results depend on the processing

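No member's call changed sign in 1970 refits of single calls, of which 300 no longer passed. The number of members was 25 with both falls at least 1 and 37 with an untreated mean of at least 8. The count lower in day 15 R5020 tissue against untreated tissue was 44 with all 33 arrays and 41 with set 3 added. The fit with set 3 added had no term for array set. Without single arrays the count was 5 to 29. Against day 10 R5020 tissue these counts were 32, 38 and 8 to 23. The count in day 15 trilostane tissue was 45 to 51 under the other settings and 29 to 48 without single arrays. The 2 falls in day 10 R5020 tissue became 1 without the filter, without the trend, with all 33 arrays, with set 3 added and with means over probe sets, and 0 to 1 without single arrays. Between day 15 R5020 and trilostane tissue every setting gave 0 lower members, and 0 higher ones except APPL2 without day 15 trilostane replicate 2, while over all probe sets 55 were lower and 13 higher without day 15 trilostane replicate 2, 2 were lower without the filter, 1 was lower and 1 higher without untreated replicate 9, and 1 was higher without day 15 trilostane replicate 1. Replicate numbers were shared by treated groups, but same-numbered arrays did not deviate together (r from -0.21 to 0.17). The sample titles number some day 15 arrays otherwise than their replicate labels, which the replicate block used. Day 15 trilostane replicates 2, 3 and 4 are titled 3, 4 and 5, and day 15 R5020 replicate 4 is titled 5. By title, trilostane replicate 2 shares its number with R5020 replicate 3, and the near copies of set 3 share theirs. Arrays of a shared source may therefore not have been paired, and whether any share a source was not settled. With the replicate block 14 members were lower in day 15 than in day 10 R5020 tissue, and 0 between the day 15 groups. Without it the first count was 16 in the same 9 arrays, a fit chosen after seeing the data. Of 3 day 15 R5020 arrays, 0 correlated best with their own number in day 10 R5020 tissue and 2 in day 15 trilostane tissue. Counts of cell division members in these settings were also added after seeing the data. With 3 or 4 arrays a group, small differences were not detectable.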
